A study of Homo sapiens with 6 samples.

Results

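The kinesin superfamily was examined in HCT116 cells, a human colorectal carcinoma line, by taking every gene of the deposited count table whose symbol begins with KIF or KIFC followed by a number and, where present, a letter from A to C. This rule found 42 of the 27942 genes in the table. By known function, 14 of them were placed in a mitotic class (motors of the spindle, chromosomes and cytokinesis), 15 in a transport class (motors that carry vesicles, organelles and other cargo) and 13 in a group of other kinesins, which act on cilia, signalling or microtubule ends outside these classes or for which no single role was assigned. RNA from 3 samples without drug (NT) was compared with RNA from 3 samples given 0.5 µM oxaliplatin (OXA). Oxaliplatin is a platinum drug that cross-links DNA, and the labelled treatment time was 24 h. All 6 libraries came from the same line, and polyadenylated RNA was sequenced. The labels number the replicates of each group and do not say whether these were separate cultures. The comparison asks whether the drug altered the transcripts of the motors of cell division and of those of cargo transport in the same way.

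Kinesins are motor proteins that turn ATP hydrolysis into movement along microtubules or into the loss of subunits from microtubule ends. Mitotic kinesins build and separate the spindle poles, move and attach chromosomes and organise the midzone where the cell divides, and their genes are transcribed mostly in G2 and mitosis of dividing cells. Transport kinesins act throughout the cell cycle and in resting cells, where they carry vesicles, mitochondria and other cargo towards the plus ends of microtubules.

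The libraries held 32979521 to 40967880 counts, and the kinesins together took 0.252% to 0.273% of the counts in NT and 0.228% to 0.238% in OXA. A filter on low counts (at least 10 counts in at least 3 libraries after scaling to the library size, and 15 in all) left 13727 genes, with 36 of the 42 kinesins among them. Levels are given as normalised read counts, scaled between libraries by the trimmed mean of M-values (TMM), and differences as log2 fold changes of OXA over NT. Genes were called changed at an adjusted p below 0.05 in edgeR's quasi-likelihood test across all genes, with Benjamini-Hochberg adjustment. NT library 1 stood apart from the other NT libraries, with a mean chi-square per gene of 79.1 against NT library 2 and 72.0 against NT library 3. The epithelial markers EPCAM, CDH1, KRT8, KRT18 and CLDN4 were present in all libraries, with summed normalised counts of 72648 to 98542 in NT and 104724 to 117276 in OXA. Of 6 markers of other cells, DCN was 0 in every library, PTPRC, CD3E, CD14 and PECAM1 averaged below 5 counts in both groups, and COL1A1 averaged 175 in NT and 215 in OXA. KRT8 and KRT18 were higher in every OXA library than in every NT library, as were 14.5% of all tested genes. None of the 5 epithelial markers was called in edgeR without the replicate block described below. With the block CDH1 was called lower and KRT8, KRT18 and CLDN4 higher, where 10.9% of all tested genes were lower and 12.1% higher. The part of the marker genes in the values below was not tested.

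KIF11, the motor that pushes the spindle poles apart, and KIF24, a kinesin of the mother centriole, fell after oxaliplatin. No kinesin was called higher in edgeR with or without the replicate block described below, in DESeq2 or in limma-voom. In edgeR without the block, 2 of the 36 tested kinesins were called lower, against 2.29% of all tested genes. There 0 were called higher, against 2.78% of all tested genes. At an unadjusted p below 0.05 in the same edgeR test, 9 kinesins were lower and 1 was higher, where the shares over all genes were 11.1% and 10.7%. KIF11 and KIF24 also exceeded a 1.5-fold change, with folds of 1.54 and 1.55. Genes both called lower and beyond 1.5-fold made up 1.44% of all tested genes. In an edgeR test against a 1.5-fold change no kinesin was called. Libraries of the same number in NT and OXA shared their deviations from the group means. When edgeR was given this number as a term of its model (the replicate block), 8 kinesins were called lower and 0 higher, against 10.9% and 12.1% of all tested genes. The 8 were KIF11, KIFC1, KIF15, KIF14, KIF18A, KIF23, KIF20A and KIF24, and all but KIF24 belong to the mitotic class. With GC and length trends taken out as well, kinesins were called in both directions, KIF1C, KIF3A, KIF5B, KIF21A and KIF26B being the higher ones. In that analysis 21.4% of all tested genes were lower and 22.8% higher. Without the block and without NT library 1, 7 kinesins were called lower, 6 of them mitotic, and 0 higher, where the shares over all genes tested in that analysis were 4.11% and 4.49%. Without NT library 3 or any one OXA library no kinesin was called. The median log2 fold change was −0.36 over the 12 tested mitotic kinesins, 0.056 over the 14 tested transport kinesins, −0.10 over the other 10 and 0.023 over all tested genes.

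**Figure D1:**
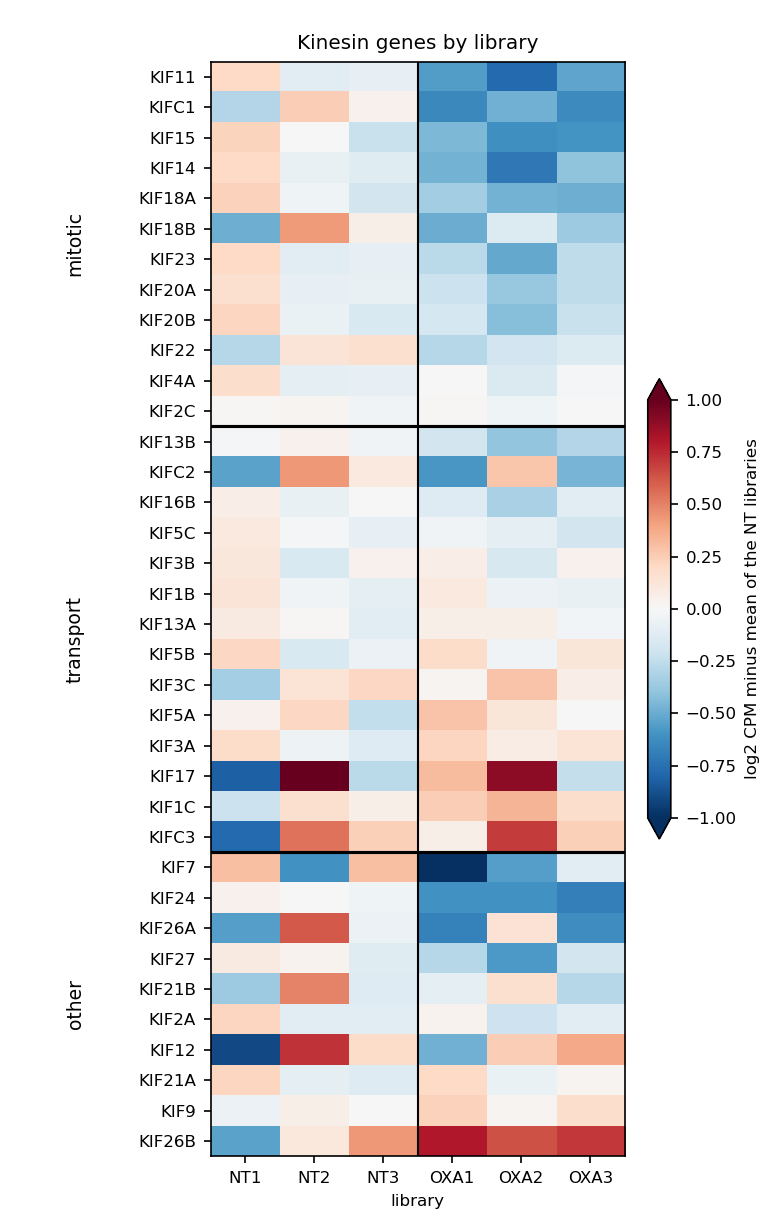
Log2 CPM (counts scaled to library size) of each tested kinesin gene in each library, as the difference from the mean of the 3 NT libraries (colour scale from −1 to 1; values beyond it take the end colour), with mitotic, transport and other kinesins separated by black lines. The OXA columns are blue for KIF11 to KIF20B in the mitotic block and near white for KIF4A and KIF2C, while the transport block has no common colour.

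Levels were compared between genes per kilobase of exon. The length took in all annotated exons of a gene, 33151 bases for KIF5C, and expressed transcripts can be shorter. The order of genes and the share of a class are therefore approximate. On this scale the most abundant kinesin in untreated cells was KIF5B, the ubiquitous heavy chain of conventional kinesin. KIF5B had 2318 ± 308 normalised counts per kb (mean ± SD, n = 3 NT libraries). All NT libraries lay higher for KIF5B than for the next gene, KIF2C, a microtubule depolymerase that corrects faulty chromosome attachments, at 1722 ± 39.6 per kb. KIF20A, a motor of the midzone, followed at 1645 ± 161 per kb and overlapped with KIF2C. The per-kb level of KIFC1 was 1220.2 ± 226, below that of KIF20A in every comparison of libraries. From KIFC1 downwards through KIF11 (915 ± 113), KIF4A, KIF1C, KIF23, KIF3B, KIF18A, KIF22 and KIF20B (473 ± 65.3) each gene overlapped with its neighbour in the order, so that neighbours there were not separated beyond their spread. In OXA the per-kb mean of KIF11 was 593 ± 54.4, which moved it from place 5 to place 9 of the kinesins, and that of KIFC1 was 802 ± 51.5, from place 4 to place 7. KIF1C, a carrier of vesicles, had 1060.0 ± 62.2 per kb in OXA and stood at place 4 after place 7 in NT. Of the summed per-kb level of all kinesins, the mitotic class made up 63.6%, 65.0% and 63.7% in NT libraries 1 to 3 and 57.5%, 58.1% and 58.6% in OXA libraries 1 to 3, with no overlap between the groups.

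**Figure D2:**
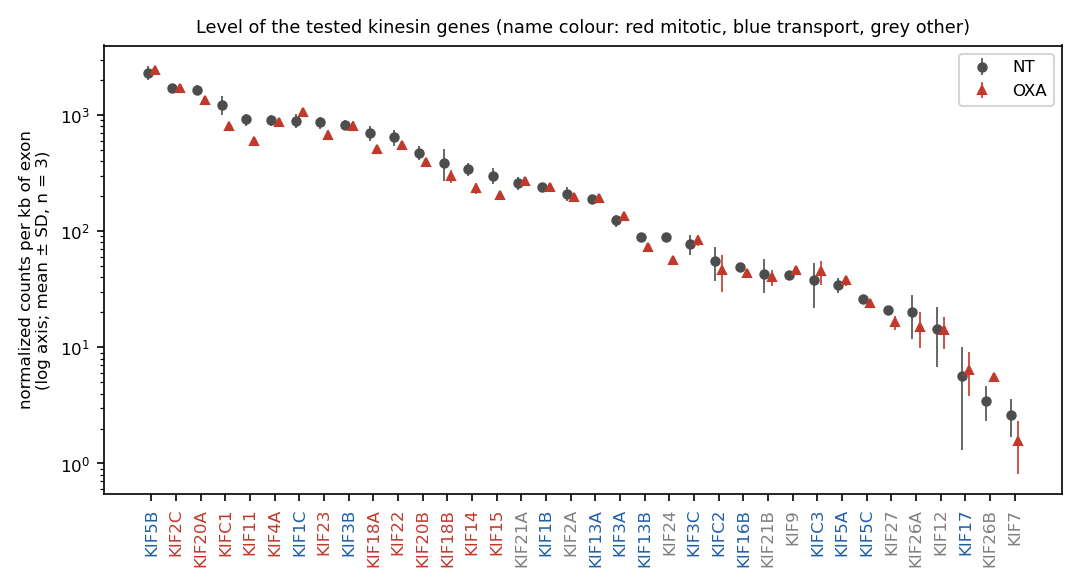
Level of the 36 tested kinesin genes in normalised counts per kb of exon on a log axis (mean ± SD of 3 libraries, NT as grey circles and OXA as red triangles), ordered by the NT mean. KIF5B is highest in both groups, and the OXA triangles sit under the NT circles for KIFC1 and KIF11 but on them for KIF2C and KIF3B.

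KIF11 (Eg5, ENSG00000138160, chr10:92574105-92655395 on GRCh38 in GENCODE v44) slides antiparallel microtubules to separate the spindle poles. Its normalised counts were 5560.0, 4476 and 4577 in NT libraries 1 to 3 and 3287, 2824 and 3356 in OXA libraries 1 to 3. Every OXA library lay below every NT library, and NT library 1 was the highest of all. The mean fell by 35.2%, with a log2 fold change of −0.63 (SE 0.12, edgeR adjusted p = 0.0275). With the replicate block the edgeR adjusted p was 0.00552, and over the 17 alternative analyses that test against no change it ranged from 7.51e-05 to 0.120. The call of KIF11 was kept without NT library 1 and without NT library 2 and lost without NT library 3 or any one OXA library, where the adjusted p reached 0.120. In RNA from whole cultures, fewer cells in G2 and mitosis and less KIF11 RNA per cell cannot be told apart, which holds for every mitotic kinesin here.

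KIFC1, KIF15 and KIF14 had fold changes close to that of KIF11 and missed the threshold without the block. KIFC1 (ENSG00000237649, chr6:33391823-33409896), a minus-end directed motor that focuses the spindle poles, had normalised counts of 2978, 4343 and 3771 in NT libraries 1 to 3 and 2333, 2611 and 2350.5 in OXA libraries 1 to 3. Every OXA library was below every NT library, and NT library 1 was the lowest of the NT libraries, opposite to its place for KIF11. Its log2 fold change was −0.60 (SE 0.14, edgeR adjusted p = 0.0538), and with the replicate block the edgeR adjusted p was 0.00916 (range over the alternatives 7.09e-06 to 0.200). KIF15 (ENSG00000163808, chr3:44761721-44873376), which helps to keep the spindle bipolar beside KIF11, had 1838, 1575 and 1344 in NT libraries 1 to 3 and 1152, 1028 and 1039.8 in OXA libraries 1 to 3. The OXA libraries lay within a narrow range under all NT libraries. Its log2 fold change was −0.56 (SE 0.13, edgeR adjusted p = 0.0550), with a block value of adjusted p = 0.00964 (alternatives 3.04e-04 to 0.205). KIF14 (ENSG00000118193, chr1:200551497-200620751), which acts with citron kinase in cytokinesis, had 2843, 2357 and 2281 in NT libraries 1 to 3 and 1785, 1510.1 and 1875 in OXA libraries 1 to 3. All OXA libraries were lower than all NT libraries. Its log2 fold change was −0.53 (SE 0.13, edgeR adjusted p = 0.0561), and the block gave 0.0141 as the adjusted p (alternatives 8.09e-04 to 0.200). Without NT library 1 and without the block, KIFC1, KIF15, KIF14, KIF18B and KIF22 passed the threshold beside KIF11.

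KIF18A, which dampens the oscillation of chromosomes on the spindle, had normalised counts of 3677, 3047 and 2761 in NT libraries 1 to 3 and 2471, 2259 and 2238 in OXA libraries 1 to 3. The groups did not overlap, and the log2 fold change was −0.44 (SE 0.12, edgeR adjusted p = 0.0799, 0.0109 with the block, alternatives 2.15e-04 to 0.254). KIF23, the motor of the centralspindlin complex that starts the cleavage furrow, had 6488, 5227 and 5344 in NT libraries 1 to 3 and 4687, 3965 and 4733 in OXA libraries 1 to 3. Here too every OXA library was lower, with a log2 fold change of −0.35 (SE 0.12, edgeR adjusted p = 0.139, 0.0216 with the block, alternatives 0.00160 to 0.380). KIF20A, which brings the chromosomal passenger complex to the midzone, had 7051, 5959 and 6001 in NT libraries 1 to 3 and 5444, 4866 and 5303 in OXA libraries 1 to 3. The groups were again separate, with a log2 fold change of −0.28 (SE 0.10, edgeR adjusted p = 0.150, 0.0220 with the block, alternatives 0.00184 to 0.401).

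KIF20B, a relative of KIF20A needed late in cytokinesis, had 3761, 3085 and 2912 in NT libraries 1 to 3 and 2869, 2407 and 2773 in OXA libraries 1 to 3. Its OXA libraries were all below its NT libraries, and it was called neither without the block (log2 fold change −0.28, edgeR adjusted p = 0.245) nor with it. KIF18B, which limits the length of astral microtubules, and KIF22, a chromokinesin that binds the chromosome arms, overlapped between the groups. The counts of KIF18B were 1265, 2381 and 1843 in NT libraries 1 to 3 and 1255, 1613 and 1375 in OXA libraries 1 to 3, where NT library 1 lay among the OXA libraries (log2 fold change −0.37, SE 0.22, edgeR adjusted p = 0.383). Those of KIF22 were 3749, 5006 and 5108 in NT libraries 1 to 3 and 3748, 4005 and 4167 in OXA libraries 1 to 3, again with NT library 1 among the OXA libraries (log2 fold change −0.22, SE 0.13, edgeR adjusted p = 0.386).

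KIF4A and KIF2C differed from the rest of the class in that their log2 fold changes were near 0. KIF4A, a chromokinesin that sets midzone length, had 4653, 3842 and 3880.4 in NT libraries 1 to 3 and 4101, 3708 and 4063 in OXA libraries 1 to 3. Its groups overlapped, with a log2 fold change of −0.060 (SE 0.10, edgeR adjusted p = 0.793). KIF2C had 6329, 6389 and 6114 in NT libraries 1 to 3 and 6336, 6104 and 6249 in OXA libraries 1 to 3, the narrowest relative range of the tested mitotic kinesins. Its log2 fold change was −0.011 (SE 0.075, edgeR adjusted p = 0.953). The ratio of KIF11 to KIF2C counts, a pair chosen after the values were seen, was 0.879, 0.701 and 0.749 in NT libraries 1 to 3 and 0.519, 0.463 and 0.537 in OXA libraries 1 to 3, and that of KIF11 to KIF4A was 1.19, 1.16 and 1.18 in NT and 0.802, 0.762 and 0.826 in OXA. Since both counts of a ratio come from the same library, these values do not depend on the scaling between libraries. KIF2B, a testis-associated relative of KIF2C, had 0 counts in all libraries, where 3 counts are the limit that a count of 0 allows. KIF4B had 0 to 4 counts, and as a near-identical copy of KIF4A it could share reads with that gene, so the division of reads between them is uncertain.

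**Figure D3:**
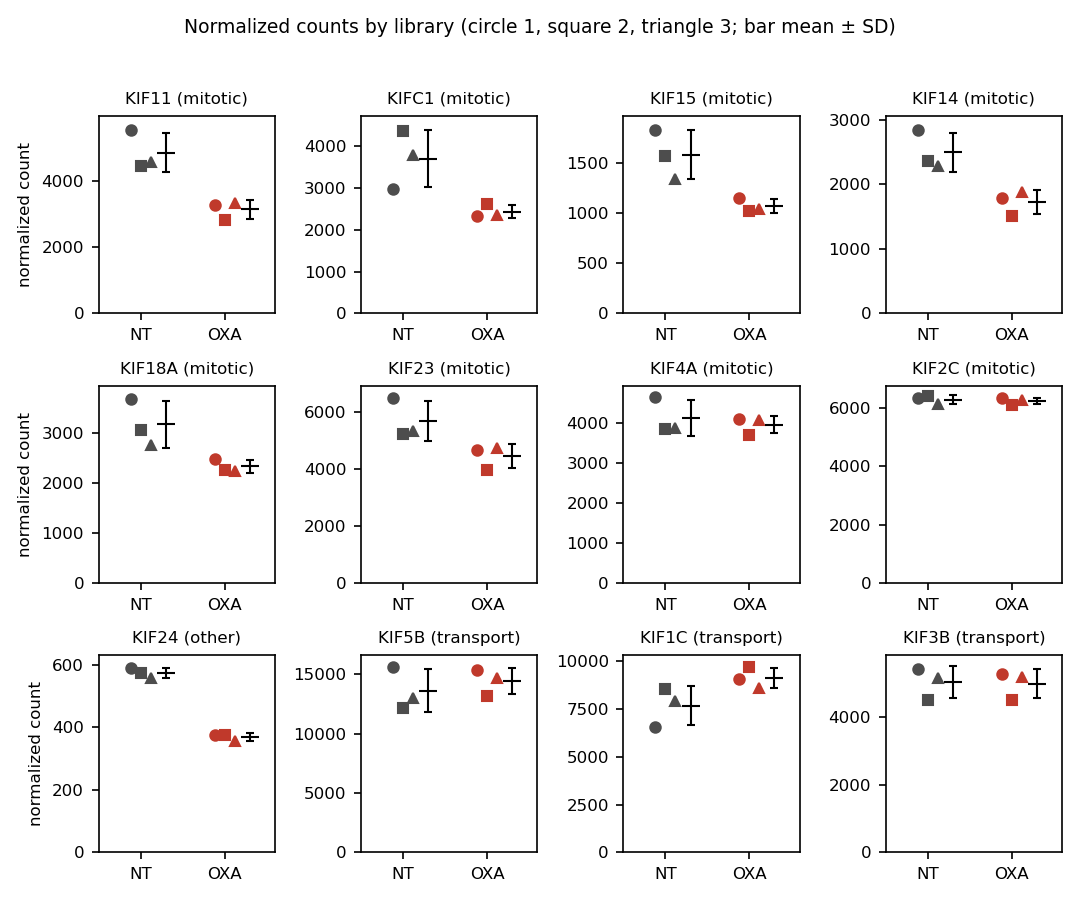
Normalised counts of 12 kinesin genes in NT (grey) and OXA (red) libraries, with circle, square and triangle for libraries 1, 2 and 3 and a black bar for the mean ± SD of 3 libraries; all axes start at 0. The groups are apart for KIF11, KIFC1, KIF15, KIF14, KIF18A, KIF23, KIF24 and KIF1C and overlap for KIF4A, KIF2C, KIF5B and KIF3B.

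Over the mitotic class, 1 of the 12 tested genes was called lower without the block, against 2.29% of all tested genes. With the block 7 were called lower, against 10.9%. At an unadjusted p below 0.05 in edgeR without the block 7 were lower, against 11.1% of all tested genes. All 12 had a negative log2 fold change, from −0.63 to −0.011, where 46.7% of all tested genes were negative. In 8 of the 12, every OXA library was below every NT library, against 14.4% of all tested genes, and in none was the order the opposite one (14.5% of all tested genes). Within same-numbered pairs, 10 of the 12 genes were lower in OXA in all 3 pairs, KIF4A in 2 and KIF2C in 1, and the median difference was −0.38, −0.41 and −0.29 in pairs 1, 2 and 3. NT library 1 was the highest NT library for 8 of the 12 genes and the lowest for KIF18B, KIF22 and KIFC1. The GC content of the longest annotated transcript was 34.3% to 48.2% for those 8 genes. For KIF18B, KIF22 and KIFC1 it was 54.0% to 58.4%. With the replicate block and the dependence of every library on the GC content and length of transcripts taken out, an alternative added after the data were seen, 10 of the 12 were called lower, all but KIF4A and KIF2C, against 21.4% of all tested genes.

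The promoters of the genes on which these results turn are shown next, because many genes transcribed for mitosis are known to share motifs near their starts. The cell cycle genes homology region (CHR) is bound by MuvB complexes, which repress such genes in resting cells and, with MYBL2 and FOXM1, activate them in G2, and the CCAAT box is bound by NF-Y. RefSeq promoter windows on GRCh38.p14, from 250 bases before to 50 bases after the annotated start, matched 34 of the 42 kinesins, and the start in RefSeq can differ from that in GENCODE, as it does for KIF11. KIF13B, KIF19, KIF21B, KIF26B, KIF27, KIF5A, KIFC2 and KIFC3 had no entry. The letters TTTGAA and TTCGAA were searched as CHR, CCAAT as the CCAAT box, and TTTGGCGC, TTTCGCGC and TTTCCCGC as E2F sites, each on both strands, and no match overlapped another. The stretches below run 5′ to 3′ on the strand of the gene from 110 bases before to 30 bases after the start (150 before for KIF5B), with capitals marking CHR and CCAAT letters in either orientation. First come the mitotic kinesins with the most negative log2 fold changes.
KIF11 (chr10:92593020-92593159, plus strand): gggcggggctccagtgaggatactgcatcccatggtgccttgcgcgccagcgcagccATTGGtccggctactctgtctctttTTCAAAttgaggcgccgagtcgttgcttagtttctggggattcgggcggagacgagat
KIFC1 (chr6:33391713-33391852, plus strand): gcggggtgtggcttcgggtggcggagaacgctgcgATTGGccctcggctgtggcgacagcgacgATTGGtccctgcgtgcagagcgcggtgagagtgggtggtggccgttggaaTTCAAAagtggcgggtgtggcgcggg
KIF15 (chr3:44761684-44761823, plus strand): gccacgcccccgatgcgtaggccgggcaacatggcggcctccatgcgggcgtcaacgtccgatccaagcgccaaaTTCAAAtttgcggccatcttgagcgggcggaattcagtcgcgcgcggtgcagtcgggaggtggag
KIF14 (chr1:200620722-200620861, minus strand): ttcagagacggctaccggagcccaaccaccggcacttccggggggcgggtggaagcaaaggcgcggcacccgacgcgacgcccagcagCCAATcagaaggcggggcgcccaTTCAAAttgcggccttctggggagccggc
KIF18A (chr11:28108127-28108266, minus strand): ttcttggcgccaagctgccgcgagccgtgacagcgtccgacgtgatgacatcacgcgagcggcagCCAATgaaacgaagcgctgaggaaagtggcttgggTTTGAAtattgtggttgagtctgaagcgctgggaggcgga

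Each of these has CHR letters. In KIF11 a reversed CCAAT box lies upstream of a reversed CHR, in KIF18A the CHR lies in the forward orientation just before the start, and in KIFC1 and KIF14 the CHR lies just past the start. KIF15 has no CCAAT box in its window, but an E2F site on the minus strand directly before its CHR. Next come the mitotic kinesins KIF20A, KIF4A and KIF2C, which differ from those above in their letters or in their fold change, and the called centriolar kinesin KIF24 and the abundant transport kinesin KIF5B for comparison.
KIF20A (chr5:138179002-138179141, plus strand): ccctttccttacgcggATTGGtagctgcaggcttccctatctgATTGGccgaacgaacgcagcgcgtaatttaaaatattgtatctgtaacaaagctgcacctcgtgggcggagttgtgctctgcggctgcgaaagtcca
KIF4A (chrX:70289994-70290133, plus strand): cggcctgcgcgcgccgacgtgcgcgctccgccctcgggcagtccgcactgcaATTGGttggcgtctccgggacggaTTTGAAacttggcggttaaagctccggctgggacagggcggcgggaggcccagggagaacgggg
KIF2C (chr1:44739727-44739866, plus strand): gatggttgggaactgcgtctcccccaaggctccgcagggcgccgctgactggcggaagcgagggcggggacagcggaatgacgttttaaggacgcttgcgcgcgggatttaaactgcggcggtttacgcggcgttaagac
KIF24 (chr9:34329239-34329378, minus strand): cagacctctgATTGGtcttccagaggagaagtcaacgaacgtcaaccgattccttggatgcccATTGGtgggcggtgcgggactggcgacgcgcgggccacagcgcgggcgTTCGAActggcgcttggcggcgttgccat
KIF5B (chr10:32056396-32056575, minus strand): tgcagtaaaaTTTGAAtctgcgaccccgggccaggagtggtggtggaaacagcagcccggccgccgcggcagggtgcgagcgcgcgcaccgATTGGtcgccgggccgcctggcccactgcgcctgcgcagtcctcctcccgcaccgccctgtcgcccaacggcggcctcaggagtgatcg

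KIF20A has a pair of CCAAT boxes and none of the CHR letters searched, and KIF2C has none of the motif letters searched. The printed stretches of KIF20A and KIF2C also hold TTTAAA, which was not among the searched letters. Whether TTTAAA acts as a CHR there was not tested. KIF4A has both a CHR and a CCAAT box, as KIF11 does, yet its log2 fold change was −0.060. Outside the mitotic class, KIF24 has a CHR just past its start, and KIF5B has CHR letters that begin at position −140 from its start. Of the 14 mitotic kinesins, 11 held CHR letters, all within 100 bases before to 50 after the start, 11 held a CCAAT box, 10 held both and 1 an E2F site. CHR letters were found in 1 of the 11 transport kinesins with a window and in 1 of the 9 other kinesins with one, and a CCAAT box in 3 of each. Over all 35116 RefSeq promoters the shares were 16.4% for CHR letters, 7.37% for CHR letters within the nearer stretch, 34.6% for a CCAAT box, 6.38% for both and 2.74% for an E2F site. Among tested mitotic kinesins, the 10 with CHR letters had a median log2 fold change of −0.41 (range −0.63 to −0.060). KIF20A and KIF2C, which have none of the CHR letters searched, had −0.28 and −0.011. A match of letters is not a bound site, and no binding was measured.

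**Figure D4:**
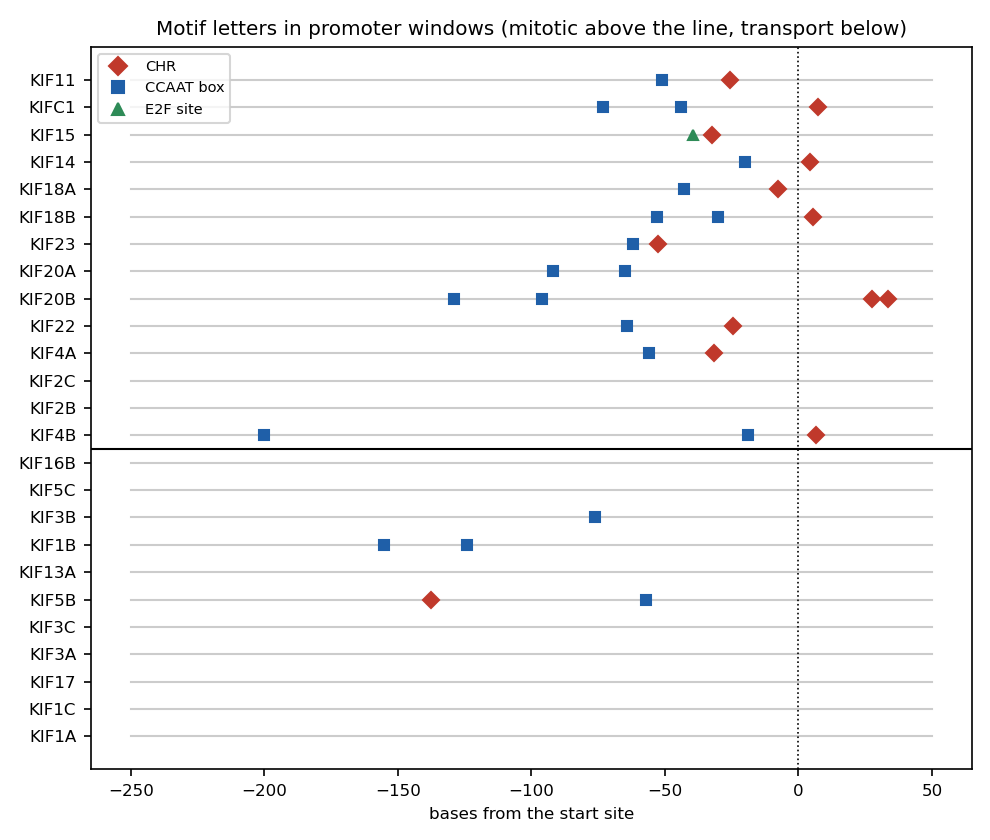
Positions of CHR (red diamonds), CCAAT box (blue squares) and E2F site (green triangle) letters from 250 bases before to 50 after the start of mitotic kinesins (above the line) and transport kinesins (below it), each class ordered by log2 fold change with untested genes last; a grey line is a gene's window. CHR diamonds lie between positions −55 and 36 from the start in 11 mitotic kinesins, and the single diamond among transport kinesins is that of KIF5B.

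None of the 14 tested transport kinesins was called in either direction in edgeR, with or without the block, nor in DESeq2 or limma-voom. In edgeR the shares lower and higher over all tested genes were 2.29% and 2.78% without the block and 10.9% and 12.1% with it. At an unadjusted p below 0.05 in edgeR without the block, 1 was lower (KIF13B) and 0 were higher, against 11.1% and 10.7% of all tested genes. With the block and the GC and length trends taken out, where 21.4% of all tested genes were lower and 22.8% higher, KIF13B and KIFC2 were called lower and KIF1C, KIF3A and KIF5B higher. Of their log2 fold changes without the block 6 were negative and 8 positive, from −0.29 to 0.26. KIF5B, the heavy chain that with the light chains moves vesicles and mitochondria, had normalised counts of 15631, 12168 and 12998 in NT libraries 1 to 3 and 15344, 13194 and 14720.2 in OXA libraries 1 to 3. The groups overlapped, with the highest and the lowest value both in NT (log2 fold change 0.085, SE 0.12, edgeR adjusted p = 0.732). Its relatives KIF5A and KIF5C, known mainly from neurons, were detected at means of 422 ± 65.5 in NT and 461 ± 46.5 in OXA for KIF5A and 863 ± 55.0 in NT and 804 ± 41.2 in OXA for KIF5C (mean ± SD, n = 3 each), with log2 fold changes of 0.13 and −0.10.

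Among the vesicle carriers, KIF1C had 6555, 8512 and 7917 in NT libraries 1 to 3 and 9030.1, 9655 and 8593 in OXA libraries 1 to 3. All OXA libraries lay above all NT libraries, but the log2 fold change of 0.25 (SE 0.11) did not pass the test (edgeR adjusted p = 0.263). Over the 14 tested transport kinesins, 1 had that order and 2 the opposite one, against 14.5% and 14.4% of all tested genes. NT library 1 was the lowest NT library of KIF1C. KIF1B, a carrier of synaptic vesicle precursors and mitochondria, had 4994, 4447 and 4283 in NT libraries 1 to 3 and 4888, 4378 and 4327 in OXA libraries 1 to 3, with overlapping groups (log2 fold change −0.014). KIF1A, its relative in neurons, had 1 to 10 counts and was not tested.

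KIF13B, which carries membrane proteins and belongs to the same family as KIF13A, had 977, 1013 and 962 in NT libraries 1 to 3 and 866, 748 and 805 in OXA libraries 1 to 3. Every OXA library was below every NT library, yet the gene was not called without the block (log2 fold change −0.29, SE 0.10, edgeR adjusted p = 0.154). KIF16B, which moves early endosomes, had 398, 361 and 379.6 in NT libraries 1 to 3 and 347, 303 and 352 in OXA libraries 1 to 3, also without overlap (log2 fold change −0.18, edgeR adjusted p = 0.469). KIF13A, a motor of recycling endosomes, had 2263, 2145 and 1971 in NT libraries 1 to 3 and 2208, 2206 and 2086 in OXA libraries 1 to 3, and its groups overlapped (log2 fold change 0.027), with a sign that turned under upper quartile factors, library totals and no filter.

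KIF3A and KIF3B, the motor subunits of kinesin-2, which carries cargo into cilia, differed in abundance. KIF3B had 5411, 4496 and 5143 in NT libraries 1 to 3 and 5251, 4479 and 5166 in OXA libraries 1 to 3, and its groups overlapped (log2 fold change −0.015). KIF3A averaged 849 ± 98.3 in NT and 933 ± 45.5 in OXA (log2 difference 0.14), and KIF3C, a further kinesin-2 subunit, 494 ± 95.5 in NT and 534 ± 53.8 in OXA (log2 difference 0.11). KIF17, the homodimeric kinesin-2, was sparse, at 25.5 ± 19.6 in NT and 28.8 ± 11.9 in OXA (log2 difference 0.17, SE 0.56). The minus-end directed KIFC2 and KIFC3 varied widely between libraries of one group, at 245 ± 79.1 in NT and 205 ± 71.2 in OXA for KIFC2 (log2 fold change −0.26) and 362 ± 151 in NT and 432 ± 104 in OXA for KIFC3 (log2 fold change 0.26). NT library 2 was the highest NT library for KIF17, KIFC2 and KIFC3, and OXA library 2 the highest OXA library. For KIF3B and KIF1B the sign of the fold change turned without NT library 1, and for KIF17, KIF3C and KIFC3 likewise. Median transport values stayed within −0.043 to 0.059 over 19 alternatives.

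The medians of both classes were then set beside each other in each library, as the difference in log2 CPM, counts scaled to the library size, from the NT mean of each gene. For the mitotic kinesins the median was 0.19, −0.055 and −0.083 in NT libraries 1 to 3 and −0.32, −0.45 and −0.31 in OXA libraries 1 to 3, while for the transport kinesins it was 0.056, 0.029 and −0.045 in NT and 0.063, 0.065 and −0.015 in OXA. The mitotic groups were separate, and the transport groups overlapped. Mitotic minus transport, a difference that the scaling of a library leaves as it is, was 0.13, −0.084 and −0.038 in NT and −0.38, −0.51 and −0.30 in OXA, so every OXA library lay below every NT library. The pooled SD over libraries of one group was 0.11 for this difference. On the fold change scale the mitotic median lay below the transport median under all 19 alternatives, by 0.34 to 0.43 in log2 units. This describes these lists and is not a test. The alternatives that only required or tested a 1.5-fold change repeat the main fold changes, so the order could not differ in them. Summed per-kb levels of the mitotic class were 9707 to 10488 in NT and 7896 to 8365 in OXA, and those of the transport class 4769 to 5243 in NT and 5059 to 5473 in OXA.

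**Figure D5:**
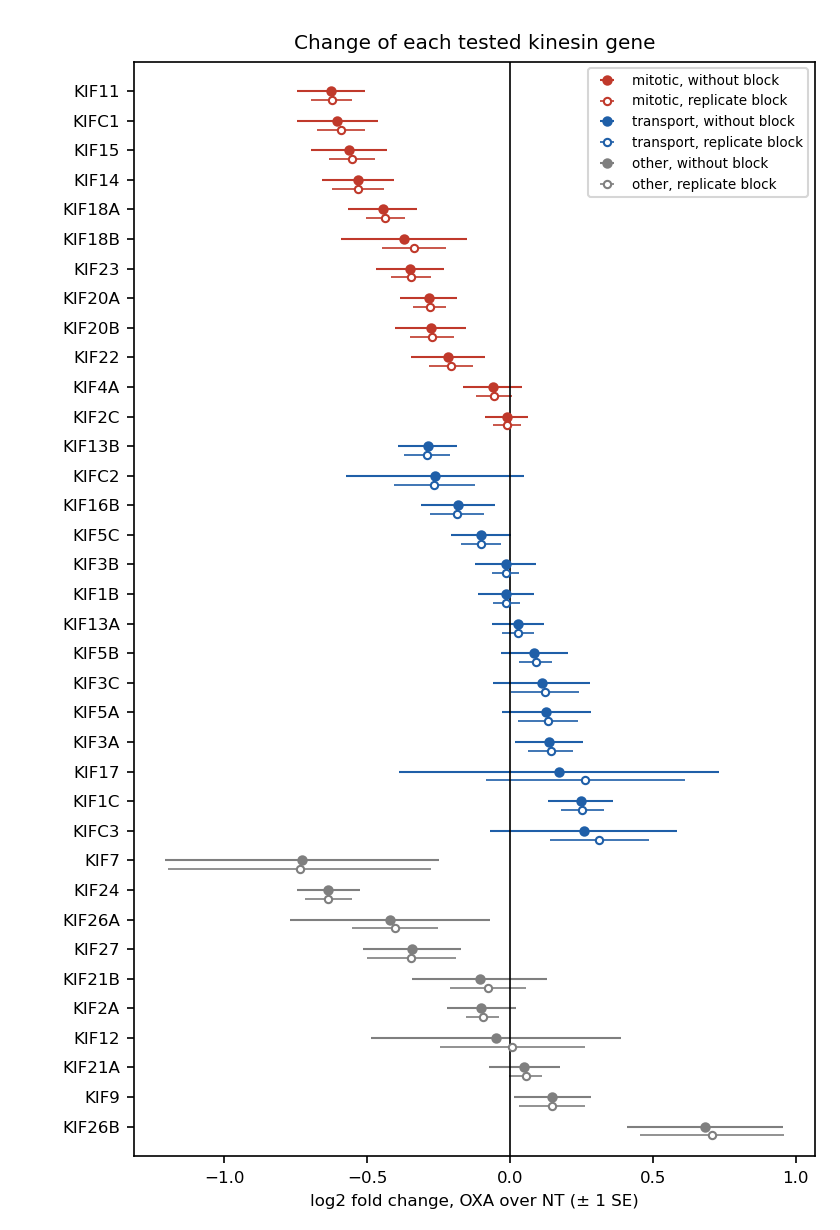
Log2 fold change of OXA over NT for each tested kinesin gene (filled points without block, open points with the replicate block, lines ± 1 SE), in red for mitotic, blue for transport and grey for other kinesins. The mitotic points run from −0.63 to −0.011 and the transport points from −0.29 to 0.26, and the error bars of the block are mostly shorter.

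Of the 10 other kinesins tested, KIF24 was called lower and none higher, with or without the block. Over all tested genes 2.29% were lower and 2.78% higher without the block, and 10.9% and 12.1% with it. With the block and the GC and length trends taken out, KIF26A and KIF21B were also called lower and KIF26B and KIF21A higher, where 21.4% of all tested genes were lower and 22.8% higher. KIF24 (ENSG00000186638, chr9:34252380-34329268), a depolymerase at the mother centriole that restrains cilium assembly, had normalised counts of 589.8, 574 and 557 in NT libraries 1 to 3 and 377, 375 and 356 in OXA libraries 1 to 3. The values within each group lay close together and the groups were far apart. The mean fell by 35.6%, with a log2 fold change of −0.64 (SE 0.11, edgeR adjusted p = 0.0218). With the block the edgeR adjusted p was 0.00723 (alternatives 2.36e-04 to 0.116). The call was kept when NT library 1 was left out and lost when any other single library was, with a log2 fold change between −0.69 and −0.61 throughout.

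KIF26B, a kinesin without motor activity that is linked to adhesion and signalling, had 32.7, 52.0 and 65.7 in NT libraries 1 to 3 and 85.5, 76.3 and 80.2 in OXA libraries 1 to 3. Every OXA library was above every NT library, with a log2 fold change of 0.68 (SE 0.27), which was not called without the block (edgeR adjusted p = 0.202). Its relative KIF26A had 91.0, 206 and 129 in NT libraries 1 to 3 and 83.3, 148 and 86.4 in OXA libraries 1 to 3, with overlapping groups (log2 fold change −0.42, SE 0.35). KIF27, a relative of the Hedgehog regulator KIF7, had 172, 165 and 148 in NT libraries 1 to 3 and 132, 108 and 142 in OXA libraries 1 to 3. There all OXA libraries were lower without a call (log2 fold change −0.34, edgeR adjusted p = 0.302). Over the 10 other kinesins tested, all OXA libraries lay lower in 2 and higher in 1, against 14.4% and 14.5% of all tested genes.

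KIF2A, a depolymerase of spindle poles and neurons, averaged 2740.4 ± 370.2 in NT and 2557 ± 221 in OXA (log2 difference −0.10, edgeR adjusted p = 0.692). Counting it as mitotic, with KIF21A and KIF21B as transport kinesins, could not change the counts of called genes, since none of these genes was called. KIF21A and KIF21B, which restrain microtubule growth, averaged 2624 ± 352 in NT and 2717 ± 261 in OXA for KIF21A and 525 ± 169.6 in NT and 488 ± 76.2 in OXA for KIF21B, with log2 fold changes of 0.051 and −0.11. Both overlapped between groups. KIF9, a kinesin of motile cilia, averaged 246 ± 10.3 in NT and 273 ± 19.6 in OXA (log2 difference 0.15). KIF12 and KIF7 were sparse, KIF12 with 20.4, 67.6 and 45.6 in NT and 28.1, 48.0 and 52.6 in OXA (log2 difference −0.049, turning sign with the block) and KIF7 at 14.3 ± 5.22 in NT and 8.51 ± 4.08 in OXA (log2 difference −0.73, SE 0.48). The groups of all these overlapped. KIF19, KIF6 and KIF25 were not tested, with 2 to 12, 1 to 5 and 0 to 1 counts.

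CENPE, the kinetochore kinesin that aligns chromosomes, and STARD9, a kinesin of the centriole, carry other symbols and were looked at beside the 42. CENPE had 1979, 1786 and 1481 in NT libraries 1 to 3 and 1414, 1499 and 1335 in OXA libraries 1 to 3. The groups overlapped, and the log2 fold change of −0.30 (SE 0.13, edgeR adjusted p = 0.213) gave an adjusted p of 0.0494 with the block (alternatives 0.0132 to 0.427). For STARD9 it was −0.053 (edgeR adjusted p = 0.913).

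Proteins that work with the mitotic kinesins on the spindle and midzone were taken as a list of 21 genes, all tested. RACGAP1, the partner of KIF23 in centralspindlin, and SKA1, a subunit of the kinetochore coupler that holds on to microtubule ends, fell. RACGAP1 had 9091, 7687 and 8208 in NT libraries 1 to 3 and 6066, 5360.0 and 6431 in OXA libraries 1 to 3. All OXA libraries were lower (log2 fold change −0.48, SE 0.11, edgeR adjusted p = 0.0435). SKA1 had 1380.0, 1354 and 1254 in NT libraries 1 to 3 and 805, 671 and 895 in OXA libraries 1 to 3, likewise without overlap (log2 fold change −0.75, SE 0.13, edgeR adjusted p = 0.0210). In all, 2 of the 21 were called lower without the block, against 2.29% of all tested genes, and 12 with it, against 10.9%. None was called higher in edgeR (0 at an unadjusted p below 0.05), and the median log2 fold change was −0.31 (range −0.75 to 0.084). Both calls were lost when NT library 2, NT library 3, OXA library 1 or OXA library 2 was left out, and that of RACGAP1 also without OXA library 3.

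On the side of transport, 14 light chains and cargo adaptors were tested, and none was called without the block or in DESeq2 or limma-voom. Without the block 2.29% of all tested genes were called lower and 2.78% higher in edgeR. In edgeR without the block 3 were lower and 1 was higher at an unadjusted p below 0.05, against 11.1% and 10.7% of all tested genes. Their median log2 fold change was 0.072. The genes called with the block included KIF1BP, which was lower, and TRAK1, an adaptor of mitochondria, which was higher, both named after their values were seen. TRAK1 had 1367, 1487 and 1352 in NT and 1776, 1856 and 1661 in OXA (log2 difference 0.33, edgeR adjusted p = 0.0905 without the block). Dynein, the motor that moves to microtubule minus ends, and its activator dynactin had 15 of 17 listed subunits tested. DYNLT1, a light chain of dynein, rose, with counts of 3048, 2799 and 2822 in NT and 4208, 3992 and 4076 in OXA and no overlap (log2 fold change 0.50, SE 0.081, edgeR adjusted p = 0.0174). It was the 1 subunit called without the block, where 2.78% of all tested genes were higher, while 1 was lower and 4 were higher with it, where the shares of all tested genes were 10.9% and 12.1%. The median log2 fold change of the list was 0.11. Without the block no subunit was called when any library other than NT library 1 was left out.

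Of 20 regulators of cell cycle gene transcription, 3 were called lower and 1 higher, against 2.29% and 2.78% of all tested genes, and with the block 8 were lower and 1 higher, against 10.9% and 12.1%. The median log2 fold change was −0.21. CDKN1A, the p53-induced inhibitor of cyclin-dependent kinases, rose, with counts of 4235, 5143 and 6049.6 in NT and 40181, 41316 and 35832 in OXA (log2 difference 2.93, SE 0.15, edgeR adjusted p = 4.45e-04). E2F1, E2F2 and RBL1 (a pocket protein gene) fell, with log2 fold changes of −1.10, −0.97 and −0.79 (edgeR adjusted p = 0.00858, 0.0115 and 0.0112). RBL1 and E2F2 lost their calls without OXA library 1 or OXA library 2, E2F2 also without NT library 3, and E2F1 without OXA library 1. FOXM1, an activator of G2 and mitotic genes, had 6371, 7156 and 6659 in NT libraries 1 to 3 and 5413, 5205 and 5616 in OXA libraries 1 to 3. Its OXA libraries were all lower, with a log2 fold change of −0.31 that was not called without the block (edgeR adjusted p = 0.0788) and was called with it (0.0215, alternatives 7.33e-04 to 0.266). MYBL2, the MYB factor of the MuvB complex, had 3420.4, 5867 and 4819 in NT libraries 1 to 3 and 3428, 4031 and 3581 in OXA libraries 1 to 3, with overlapping groups (log2 fold change −0.35, edgeR adjusted p = 0.321). The part of these regulators in the kinesin values was not tested.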

How the data were processed

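Polyadenylated RNA of HCT116 cells was sequenced in 6 libraries (3 NT, 3 OXA). The authors deposited whole-number counts per gene, mapped to GRCh38, beside normalised values of their own, a signal scaled by gene as well as by library. The submitters' processing notes name Trimmomatic 0.32, STAR 2.7.5b, RSEM 1.3.3 and DESeq2 2.13. The annotation and the strand setting of the counting are not given in the sources used here, so overlapping genes may share reads. Counts were tested with edgeR 4.0.16 (R 4.3.3, TMM, quasi-likelihood test, Benjamini-Hochberg adjustment over 13727 genes), and the deposited signal served only as an alternative, with limma 3.58.1 on log2(value + 1). DESeq2 1.42.0 and limma-voom were further alternatives. The scripts were tested on simulated data. Exon lengths, taken over all annotated exons of a gene, came from GENCODE v44.

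Nothing in the labels ties the replicates to separate experiments, so p-values measure only the spread between these samples, which may be technical. Deviations from the group means correlated within same-numbered pairs at 0.55, 0.54 and 0.31 and between other pairs at −0.47 to 0.090, all same-numbered pairs above the limit of 0.1, so the block is given beside results that it changes. The pairing comes from the replicate numbers of the labels. All 42 kinesins are accounted for. From the other lists, genes below an adjusted p of 0.05 were named, at most 5 a list, with CENPE, STARD9, FOXM1, MYBL2 and CDKN1A. The members, classes, lists, motifs and naming rule were chosen with earlier results of these data known.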

Additional observations from a re-analysis of the deposited data

How the results depend on the processing

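The mitotic median log2 fold change stayed between −0.41 and −0.32 over 19 alternatives and the transport median between −0.043 and 0.059. Among these, the 1.5-fold requirement and the test against a 1.5-fold change repeat the main fold changes. Kinesins called lower were 2, with 1 mitotic. The 1.5-fold requirement left both calls in place, and relative log expression factors gave 2 mitotic calls, as did limma on the deposited normalised values. Upper quartile factors, library totals, no filter and a filter of 10 counts in every library each gave 5 kinesins and 4 mitotic, DESeq2 6 and 5, the replicate block 8 and 7, and the test against a 1.5-fold change 0 and 0. With the replicate block and the GC and length trends removed, 15 kinesins were lower and 5 higher, among them 10 mitotic lower and 2 transport lower and 3 higher. Over all tested genes the counts lower and higher were 315 and 381, and with the replicate block 1493 and 1664. With GC and length trends removed as well they were 2937 and 3129, and with DESeq2 580 and 612. Upper quartile factors gave 493 and 348, library totals 511 and 350, and no filter 347 and 331. A filter of 10 counts in every library gave 464 and 358, and relative log expression factors 311 and 368. For limma on the deposited normalised values they were 187 and 236. The 1.5-fold requirement left 198 and 270, and the test against a 1.5-fold change 9 and 41. Without OXA replicate 1 they were only 19 and 66. Spindle partners called lower were 2, against 4 with upper quartile factors, 5 with DESeq2, 12 with the replicate block, 16 with GC and length trends removed as well, 1 with the 1.5-fold requirement and 0 in the test against a 1.5-fold change. Adaptors called were 0, against 3 with the replicate block and 7 with the trends removed as well. Dynein and dynactin subunits called were 1, against 5 and 9 in these analyses and 0 with the 1.5-fold requirement or the test against it.

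Without 1 library at a time, kinesins called lower ranged from 0 to 7 and mitotic ones from 0 to 6, each highest without NT replicate 1, spindle partners from 0 to 5, dynein and dynactin subunits from 0 to 1, and the transport median from −0.043 to 0.029. Genes called lower over the whole set ranged there from 19 without OXA replicate 1 to 571 without NT replicate 1. The mitotic and transport medians kept their order. These analyses have fewer samples; for the other settings the cause was not tested.

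Signs turned for 16 genes, none with an adjusted p below 0.05. With single libraries left out, log2 fold changes of these genes ranged from −0.14 to 0.036 for KIF4A, −0.19 to 0.018 for KIF2A, −0.18 to 0.96 for KIF17, −0.092 to 0.054 for KIF1B, −0.12 to 0.055 for KIF3B, −0.040 to 0.19 for KIF3C, −0.040 to 0.51 for KIFC3, −0.39 to 0.35 for KIF12, −0.047 to 0.17 for KIF21A, −0.27 to 0.15 for KIF21B, −0.023 to 0.20 for KIF5B, −0.18 to 0.081 for STARD9, −0.057 to 0.074 for KIF13A, −0.020 to 0.20 for KIF5A and −0.061 to 0.0041 for KIF2C. Elsewhere the value was −0.012 for KIF13A with upper quartile factors, −0.012 for KIF13A with library totals, −0.0012 for KIF13A without a filter, 0.065 for KIF12 in limma-voom, 0.48 for KIF12, −0.12 for KIF9, −0.013 for KIF3C and 0.012 for STARD9 in limma on the deposited normalised values, 0.0082 for KIF12 with the replicate block, 0.0039 for KIF2A, 0.0060 for KIF1B and 0.017 for KIF3B with the GC and length trends removed as well. Of 216 values of mitotic kinesins under alternatives, 214 were negative. Values under the 1.5-fold requirement and the test against a 1.5-fold change are counted there, though they repeat the main fold changes and could not turn. Depth limits the sparse members, since 6 kinesins had too few counts for a test. The block ended no call of a named gene. Normalisation in edgeR by TMM left the median of all genes at 0.023, and other scalings and tests of the full set gave −0.016 to 0.034.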
